A study of Homo sapiens with 32 samples.

Results

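ABHD2, an alpha/beta hydrolase gene on chromosome 15, and RP11-326A19.5, a processed pseudogene that lies on the other strand within its last exon, were followed across 32 RNA-seq libraries of LNCaP cells. The 2 members were chosen by gene name, with their counts in these libraries known, from the 57773 genes of the deposited table. The values that chose them were their counts on both strands, so the levels and the split between strands are given below as a description. ABHD2 rose 1.06 on the log2 scale when the activating construct was induced with tamoxifen, and so did RP11-326A19.5. With the repressive construct the rows parted: RP11-326A19.5 fell by 0.48, while ABHD2 had a log2 fold change of 0.15 that did not pass the test. The RP11-326A19.5 row held 97.1% of the counts of both rows. Which strand the RNA behind each row came from was not tested, so these are changes of rows.

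LNCaP is an androgen-dependent prostate cancer line established from a lymph node metastasis. The parental line, which carries no construct, was compared with 3 stable lines that express a MACC, a fusion of a DNA binding domain that recognises androgen response elements (AREs) and ERT2, a mutant estrogen receptor ligand binding domain that lets tamoxifen bring the protein into the nucleus. The neutral line carries 3X FLAG as its only addition, the repressive line also carries the KRAB silencing domain and the activating line also carries the VP64 activation domain. The constructs were delivered by lentivirus and the cells selected with Blasticidin, which the labels name for the MACC lines only, so construct and selection cannot be told apart between lines. Each line was given 2.5 µM tamoxifen or vehicle (ethanol) for 48 h, with 4 libraries in each of the 8 groups. The sources used here do not say whether the lines are clones. The labels call the libraries biological replicates but do not say whether they came from separate cultures, so the p-values measure the spread between these samples.

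ABHD2 encodes a serine hydrolase of the alpha/beta hydrolase fold that can cleave monoacylglycerols, among them the endocannabinoid arachidonoylglycerol, and that was described in sperm as a progesterone-responsive lipase. In prostate cancer cells it is known as a gene that androgen induces. AREs, the DNA sequences through which androgen acts on such genes, are inverted repeats of a hexamer, and a MACC is directed to them too. RP11-326A19.5 has no known product: a processed pseudogene is a retrotransposed copy of an mRNA, here of VAPA, which encodes a membrane protein of contact sites between the endoplasmic reticulum and other organelles.

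On GRCh37, with the GENCODE annotation lifted to that build, ABHD2 (ENSG00000140526) spans 114897 bases of the plus strand, chr15:89630690-89745586. Its longest annotated transcript has 11 exons and 8424 bases, of which the last exon, chr15:89738458-89745586, holds 7129. The coding sequence ends at base 89738654 of that exon, so most of the exon is 3′ UTR. RP11-326A19.5 (ENSG00000259948) is a single exon of 678 bases on the minus strand, chr15:89744322-89744999. It lies entirely within the 3′ UTR, with 5667 bases between it and the last coding base of ABHD2 and 587 bases between it and the end of the gene. Of the 10 annotated ABHD2 transcripts, 1 holds this interval, which makes up 6.73% of the 10068 bases of merged ABHD2 exons.

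**Figure D1:**
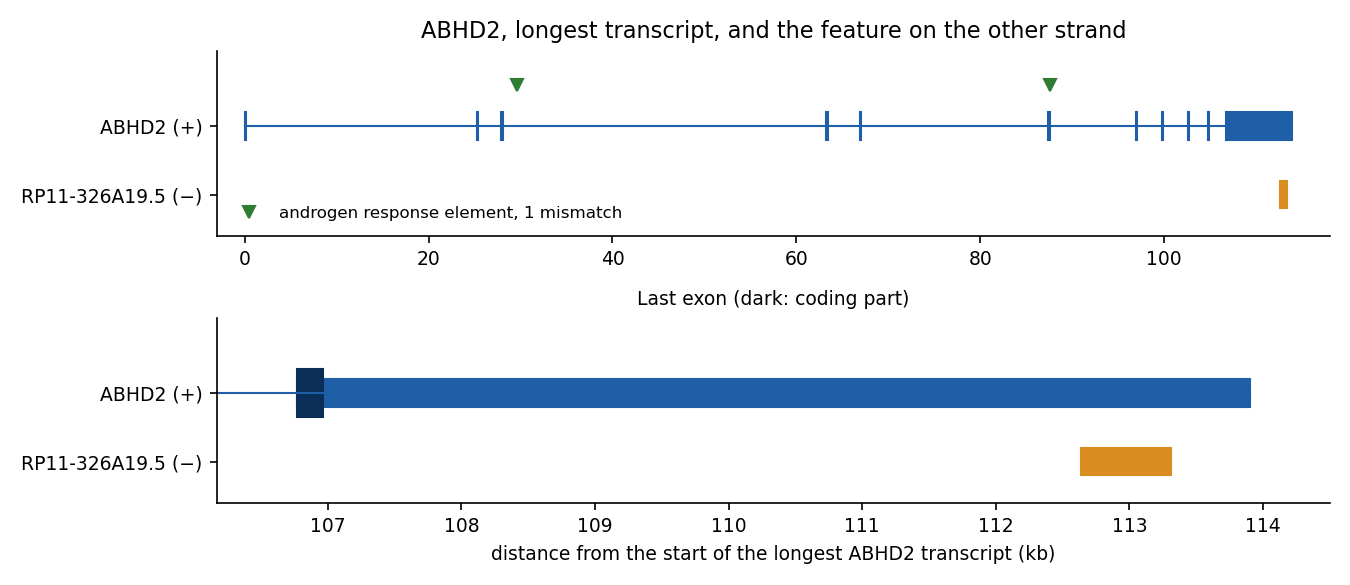
Map of ABHD2 on the plus strand (blue, 11 exons of the longest transcript) and RP11-326A19.5 on the minus strand (orange), drawn to scale along the distance in kb from the start of that transcript. The lower panel enlarges the last exon, where the 678 bases of RP11-326A19.5 lie inside the untranslated part, and triangles in the upper panel mark 2 intronic sequences that differ from the ARE at 1 base.

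Since MACCs are directed to AREs, the element was searched in ABHD2 and 50000 bases on either side (214897 bases in all), as AGAACA, then any 3 bases, then TGTTCT, a motif that reads the same on both strands. No exact match was found, and 2 sequences matched all but 1 of the 12 fixed bases. They are printed with 20 bases on either side because they are the closest matches at this locus, with the 15 bases of the element in capitals.
ABHD2 intron between exons 3 and 4, chr15:89661273-89661327, plus strand, GRCh37: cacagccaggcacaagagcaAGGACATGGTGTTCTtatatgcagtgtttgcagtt
ABHD2 intron between exons 6 and 7, chr15:89719272-89719326, plus strand, GRCh37: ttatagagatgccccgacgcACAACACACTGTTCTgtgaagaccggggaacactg
Counted from 1 at the first base of the element, the former differs by A3G and the latter by G2C. The former starts 1541 bases after the end of exon 3 and the latter 66 bases after the end of exon 6, which places them 29606 and 87605 bases from the start of the longest transcript. Windows of the same length across the genome hold an exact element in 4.20% of 13012 cases, at least 1 sequence with no more than 1 mismatch in 66.9% and at least 2 in 31.6%. A match of letters is a description and not a binding site. The single hexamer AGAACA, searched on both strands, was not in the 250 bases before either of the 2 ABHD2 starts in RefSeq (GRCh38.p14), whereas 12.4% of 35116 such windows over all genes held one. The search by letters with 1 mismatch was chosen after the exact search had found none.

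Total counts ranged from 454982 to 1164808 per library, with a median of 669922. ESR1, part of which is in the constructs, had 0 to 2 counts in the 8 parental libraries and 66 to 159 in the 24 libraries of the construct lines, and ZNF10, which supplies KRAB, had 11 to 20 counts in the repressive line and 0 or 1 elsewhere. The prostate luminal markers KLK3 (3 to 59 counts), FOLH1 (2 to 18), HOXB13 (14 to 72), KRT8 (311 to 5848) and KRT18 (9 to 42) were detected in all 32 libraries. Replicate 1 of the neutral line with tamoxifen stood apart: its chi-square per gene against the other 3 libraries of its group was 17.1 to 25.8, where no other pair of replicates was above 10.9. Of the markers of other cells, TP63 and PTPRC had 0 counts in all libraries, VIM, COL1A1, SYP, CHGA and KRT14 had at most 4. KRT5, a basal keratin, had 0 counts in all libraries of 7 groups and 38 to 54 in the 4 libraries of the activating line with tamoxifen.

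Most of the counts at the locus stood on the strand opposite to ABHD2. ABHD2 had 98 to 216 counts per library (median 157.5), while RP11-326A19.5 had 2658 to 7314 and ranked number 12 of all genes in the table by its sum over the 32 libraries. Its row held 0.442% to 1.14% of all counts of a library. Per kilobase of annotated exon the median was 15.6 counts for ABHD2 and 7804 counts for RP11-326A19.5. The pseudogene row thus exceeded the gene row in every library, by 19.9 to 48.9 times in counts.

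Other genes showed the same split. Of 451 pairs of a protein-coding gene and a noncoding row that overlaps it on the other strand, with a mean of at least 100 counts together, 332 had more than 50% of their counts on the noncoding row, and the median share there was 97.1%. The share for ABHD2 and RP11-326A19.5 was also 97.1%, and 226 pairs exceeded it. Among the 114 pairs in which the noncoding feature is entirely covered, as here, the median was 99.2% and 87 pairs lay above ABHD2. GAPDH, a glycolytic gene used by all cells, had a median of 65.5 counts, and the row opposite to it held 99.6% of the counts of that pair. MT-ND6, encoded on the other strand of the mitochondrial genome from the other 12 protein genes, reached a mean of 4468 counts, while the median for those 12 was 156. The library kit is stranded per the labels, and the strand setting of the counting is not given in the sources used here. Which strand the RNA behind each row came from was not tested, and counts of the pair are therefore given separately and added up.

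**Figure D2:**
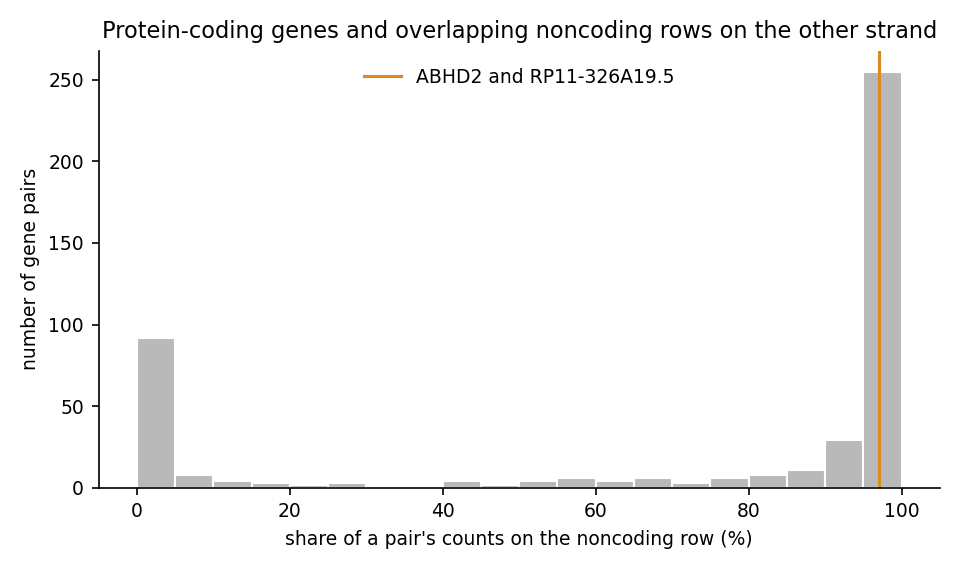
Histogram of the share of counts (%) that the noncoding row holds in each of 451 overlapping pairs of opposite strands, with the number of pairs on the vertical axis. ABHD2 and RP11-326A19.5, marked by the line at 97.1%, lie in the tallest group of pairs.

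RP11-326A19.5 also shares sequence with VAPA on chromosome 18, a gene named here outside the rule, after its values were seen. Their transcripts are 92.7% identical over 695 aligned bases on the same strand and share 209 of the 648 words of 31 bases in RP11-326A19.5. The estimated counts show that reads were split between them. The estimate was whole within 0.01 in only 2 of 32 libraries for either row, whereas the sum of both rows was whole in 32 of 32. The part credited to VAPA was small, 10.5 to 45.5 reads, which is 0.251% to 0.795% of the RP11-326A19.5 estimate in the same library. ABHD2 itself was whole in every library. How many reads of the RP11-326A19.5 row came from each copy cannot be told apart from these counts.

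Levels are given as normalised counts, in CPM, counts scaled to a common library size with TMM over all 32 libraries. In the activating line ABHD2 was at 159, 184, 177 and 242 CPM under vehicle and at 349, 368, 339 and 389 CPM under tamoxifen. All 4 tamoxifen libraries lay above all 4 vehicle libraries. RP11-326A19.5 was at 6368, 6296, 6964 and 7361 CPM under vehicle and at 12629, 12173, 13656 and 13169 CPM under tamoxifen in the same line. These groups did not overlap either, and the lowest of the induced libraries was above every other library of the study.

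In the repressive line ABHD2 was at 221, 187, 245 and 181 CPM under vehicle and 230.3, 229.7, 239.7 and 249 CPM under tamoxifen, so the groups overlapped. RP11-326A19.5 was at 7217, 6502, 5960.0 and 6429 CPM under vehicle and at 4658, 4626, 5129 and 4952 CPM under tamoxifen. Here all 4 induced libraries lay below all 4 vehicle libraries, and below every other library of the study.

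In the neutral line ABHD2 was at 202, 215, 239.9 and 251 CPM under vehicle and at 205, 209.8, 216 and 255 CPM under tamoxifen. RP11-326A19.5 was at 6658, 7560.1, 8517 and 7572 CPM under vehicle and at 6473, 7123, 7485 and 8996 CPM under tamoxifen. Both rows overlapped between treatments.

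In the parental line ABHD2 was at 249, 185, 195 and 258 CPM under vehicle and at 229, 182, 267 and 178 CPM under tamoxifen. RP11-326A19.5 was at 9742, 9041, 8406 and 8097 CPM under vehicle and at 8134, 7604, 8967 and 7749 CPM under tamoxifen. Both rows overlapped again, with 2 tamoxifen libraries below all vehicle libraries in each row.

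Ordered by group median, ABHD2 was highest in the induced activating line (358 CPM), then in the repressive line with tamoxifen (235), the neutral line with vehicle (227), the parental line with vehicle (222), the neutral (213) and parental (206) lines with tamoxifen, and the repressive (204) and activating (180.4) lines with vehicle. Only the first of these was separate from its neighbour. For RP11-326A19.5 the order was activating with tamoxifen (12899 CPM), parental with vehicle (8723) and tamoxifen (7941), neutral with vehicle (7566) and tamoxifen (7304), activating with vehicle (6666), repressive with vehicle (6465) and repressive with tamoxifen (4805). The groups at both ends stood apart from their neighbours, and the 6 between them overlapped one after the other.

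**Figure D3:**
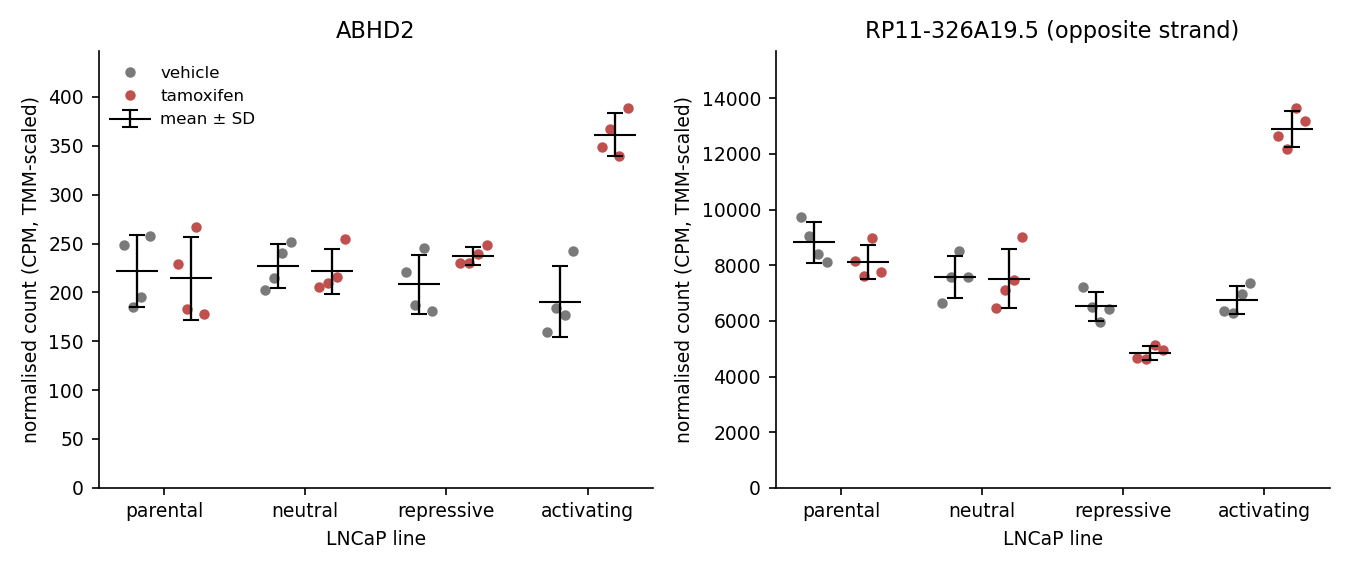
Normalised counts (CPM) of ABHD2 (left) and RP11-326A19.5 (right) in each of 32 libraries, by line, with vehicle in grey and tamoxifen in red, and bars for the mean ± SD of 4 libraries. Both rows are highest with the induced activating construct (361 ± 21.9 and 12907 ± 644 CPM), and RP11-326A19.5 is lowest with the induced repressive construct (4841 ± 241 CPM).

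The first comparison asks how each line responded to tamoxifen, tested with edgeR's quasi-likelihood test over the 8 libraries of a line and adjusted by Benjamini-Hochberg over the 3985 genes that passed the filter on low counts. In the activating line both members rose, where 44.8% of all genes tested were called. The log2 fold change was 1.06 for ABHD2 (SE 0.12, 95% interval 0.81 to 1.30, adjusted p = 1.11e-07 from edgeR) and 1.06 for RP11-326A19.5 (SE 0.07, 95% interval 0.92 to 1.21, adjusted p = 8.18e-12 from edgeR). The median of all genes tested was -0.092. Scaled by library totals without TMM, a setting chosen after seeing the data, that median moved to -0.54 and both rows rose by 0.61, while the split of all calls moved from 876 higher and 910 lower to 442 and 1684. The keratins among the cell type markers moved in these libraries too: KRT5 went from 0 counts in every library to 38 to 54, and KRT8 from 533 to 1167 counts to 4080 to 5848, while the basal markers TP63 and KRT14 had 0 counts in all 4 libraries with tamoxifen. Their part in the response of ABHD2 and RP11-326A19.5 was not tested. In bulk RNA, more RNA per cell and a change in which cells remain cannot be told apart.

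In the repressive line 17.8% of genes tested were called and so was 1 of the 2 members. RP11-326A19.5 fell by 0.48 (SE 0.05, 95% interval -0.59 to -0.37, adjusted p = 8.65e-08 from edgeR). ABHD2 had a log2 fold change of 0.15 (SE 0.11, 95% interval -0.08 to 0.37, adjusted p = 0.396 from edgeR), and the intervals of the rows did not overlap. With the rows added up, the locus fell by 0.45 (adjusted p = 1.96e-07 from edgeR), a sum made up mostly of RP11-326A19.5. Library totals without TMM gave -0.61 for RP11-326A19.5 and moved the split of all calls from 311 higher and 398 lower to 147 and 576.

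Neither member was called in the neutral line, where 4.72% of genes were (188 genes, and 107 to 414 with 1 library left out). ABHD2 had -0.055 (95% interval -0.27 to 0.16, adjusted p = 0.860 from edgeR) and RP11-326A19.5 -0.026 (95% interval -0.21 to 0.16, adjusted p = 0.925 from edgeR). Without replicate 1 of the tamoxifen group these were -0.0053 and 0.052 (adjusted p = 0.987 and 0.866 from edgeR), and library totals without TMM moved the split of all calls from 104 higher and 84 lower to 27 and 137. In the parental line, where tamoxifen has no construct to act on, 0% of genes passed with edgeR and 0 genes with DESeq2, although 306 genes had an unadjusted p under 0.05 with edgeR and 167 with DESeq2. ABHD2 had -0.094 there (95% interval -0.38 to 0.20, adjusted p = 0.907 from edgeR) and RP11-326A19.5 -0.17 (95% interval -0.33 to -0.0069, adjusted p = 0.641 from edgeR).

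**Figure D4:**
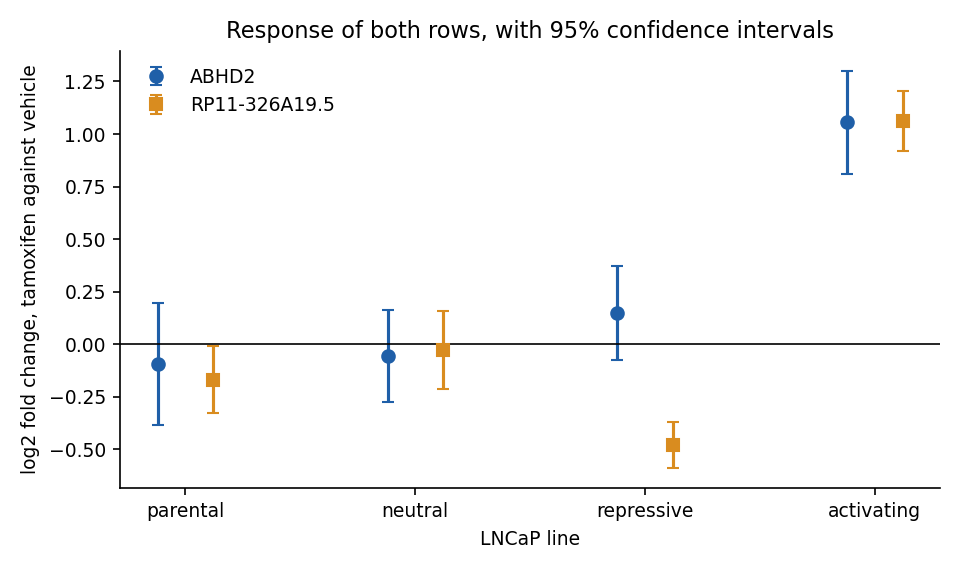
Log2 fold change of tamoxifen against vehicle for ABHD2 (circles) and RP11-326A19.5 (squares) in each line, with 95% confidence intervals from the fit over 8 libraries. The rows coincide at 1.06 in the activating line and separate in the repressive line, at 0.15 and -0.48.

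Whether the lines responded differently was tested as an interaction over 16 libraries. Against the neutral line, the activating response was higher by 1.08 for ABHD2 (SE 0.15, adjusted p = 1.51e-06 from edgeR) and by 1.06 for RP11-326A19.5 (SE 0.10, adjusted p = 1.91e-08 from edgeR), with 33.4% of genes called. The repressive response of RP11-326A19.5 was 0.45 below the neutral one (log2 difference -0.45, SE 0.10, adjusted p = 0.00684 from edgeR), with 3.39% of genes called. That of ABHD2 was 0.20 (95% interval -0.11 to 0.51, adjusted p = 0.643 from edgeR). Under scaling by library totals without TMM the RP11-326A19.5 call was lost at nearly the same size (-0.46, adjusted p = 0.117 from edgeR). Between the activating and repressive lines, where 35.9% of genes were called, ABHD2 differed by 0.90 (SE 0.17, adjusted p = 3.45e-05 from edgeR) and RP11-326A19.5 by 1.54 (SE 0.09, adjusted p = 1.11e-16 from edgeR). The neutral and parental responses, with 1.48% of genes called, differed by 0.065 for ABHD2 (95% interval -0.30 to 0.43, adjusted p = 0.963 from edgeR) and by 0.17 for RP11-326A19.5 (95% interval -0.10 to 0.43, adjusted p = 0.762 from edgeR). Without replicate 1 of the neutral line with tamoxifen, the differences from the neutral response were 1.06 and 1.01 in the activating line and 0.18 and -0.50 in the repressive line, with the same calls, and 0.10 and 0.23 (neither called) between the neutral and parental lines. Each of these comparisons shares libraries with at least 1 other. Under library totals without TMM the split of calls moved from 639 higher and 690 lower to 370 and 945 between the activating and neutral responses, from 722 and 708 to 454 and 1100 between the activating and repressive responses, and from 34 and 25 to 5 and 27 between the neutral and parental responses.

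The share of both rows that RP11-326A19.5 held needs no scaling of libraries, and it asks whether the strands moved in proportion. In the activating line the share was 97.6%, 97.2%, 97.5% and 96.8% under vehicle and 97.3%, 97.1%, 97.6% and 97.1% under tamoxifen. The means differed by 0.0078 percentage points (exact two-sided permutation p = 0.943, n = 4 against 4). In the repressive line the share was 97.0%, 97.2%, 96.1% and 97.3% under vehicle and 95.3%, 95.3%, 95.5% and 95.2% under tamoxifen. All 4 induced libraries lay below all vehicle libraries, and the mean went from 96.9% ± 0.566 to 95.3% ± 0.140 (SD, n = 4 each), a fall by 1.56 percentage points. The exact two-sided permutation p of 0.0286 is the smallest that 4 against 4 libraries can give, and adjusted over the 4 lines it was 0.114, which does not pass. With that floor a change in 1 line alone cannot pass this adjustment, so the adjusted value does not decide the question. The members were also chosen with their counts on both strands known, so the p-values of the share are descriptive. The neutral and parental lines differed by 0.042 and -0.091 percentage points (exact permutation p = 0.714 and 0.771, n = 4 against 4). The 95% Wilson intervals of single libraries all lay between 94.4% and 98.3% and cover counting error only.

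**Figure D5:**
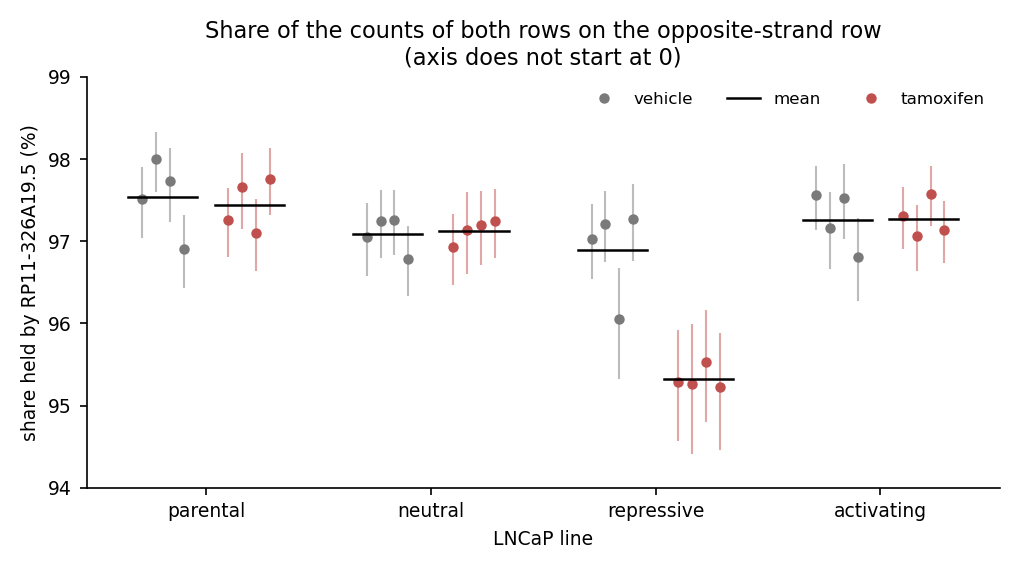
Share (%) of the counts of both rows held by RP11-326A19.5 in each library, by line, with vehicle in grey and tamoxifen in red, 95% Wilson intervals as thin bars and group means as black lines. The axis runs from 94 to 99% and does not start at 0. The 4 induced libraries of the repressive line, between 95.2% and 95.5%, lie below the other 28.

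Without induction, RP11-326A19.5 was lower in each construct line than in the parental line, and ABHD2 was not called in any pair of lines. The log2 difference of RP11-326A19.5 from the parental line was -0.26 in the neutral line (SE 0.08, adjusted p = 0.0421 from edgeR, 9.74% of genes called), -0.44 in the repressive line (SE 0.08, adjusted p = 0.00153 from edgeR, 10.8% called) and -0.40 in the activating line (SE 0.09, adjusted p = 0.0121 from edgeR, 8.08% called). These 3 differences share the same 4 parental libraries. The call in the neutral line was lost with DESeq2's test (adjusted p = 0.0770), with DESeq2's size factors in edgeR (0.0512) and when parental replicate 1, 2 or 3 or neutral replicate 1, 2 or 4 was left out (up to 0.201). That in the activating line was lost without activating replicate 2 (adjusted p = 0.0528 from edgeR), and library totals without TMM moved the split of all calls there from 169 higher and 153 lower to 133 and 200. A replicate block, given in the closing section, also ended the calls in the neutral and activating lines. With 1 library left out, the number of genes called went down to 193 in place of 388 for the neutral line, 246 in place of 432 for the repressive line and 121 in place of 322 for the activating line. For ABHD2 the same differences were -0.0059, -0.096 and -0.23 (adjusted p = 0.989, 0.749 and 0.412 from edgeR).

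Between construct lines under vehicle neither member was called. RP11-326A19.5 in the repressive line was -0.19 from the neutral line (SE 0.06, adjusted p = 0.0677 from edgeR, 2.33% of genes called), a difference that passed when neutral replicate 1 was left out (-0.25, adjusted p = 0.0163 from edgeR). In the activating line it was -0.16 from the neutral line (adjusted p = 0.457 from edgeR, 0.402% called) and 0.013 from the repressive line (adjusted p = 0.999 from edgeR, 0.0251% called). The numbers of genes called here, 93, 16 and 1, ranged from 46 to 165, from 5 to 25 and from 1 to 2 with 1 library left out. ABHD2 differed by -0.12, -0.25 and -0.16 in these comparisons (adjusted p = 0.727, 0.529 and 0.999 from edgeR).

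VAPA, whose row shares reads with RP11-326A19.5, was called in the same direction in both lines where RP11-326A19.5 was. With the activating construct VAPA rose by 1.27 (SE 0.21, adjusted p = 2.17e-05 from edgeR), or 0.82 without TMM, and with the repressive construct it fell by 1.19 (SE 0.26, adjusted p = 0.00116 from edgeR). Its log2 fold change was -0.26 in the neutral line and -0.24 in the parental line (adjusted p = 0.705 and 0.831 from edgeR). Its counts of 11 to 13 in the induced repressive libraries stood against 22 to 35 under vehicle, and no exon overlaps it on the other strand. The part that shared reads have in these changes was not tested.

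Other hydrolases of the family were scarcely measured. Of 20 genes of the alpha/beta hydrolase domain family, 2 passed the filter, and the others had at most 8 counts in any library. With the activating construct ABHD14A had -0.53 (adjusted p = 0.0860 from edgeR), which passed at -0.98 without TMM (adjusted p = 0.00682). ABHD16B, a paralogue of the phosphatidylserine lipase ABHD16A, had 0.48 (adjusted p = 0.171 from edgeR), which passed at 0.51 with DESeq2 (adjusted p = 0.0407) or with no filter (adjusted p = 0.0177). Each overlaps other genes on the opposite strand, and neither was called in the repressive line either. Of 18 genes that make or break down monoacylglycerols and endocannabinoids, or bind them, 1 passed the filter and the others had at most 5 counts. NAPEPLD, which releases N-acylethanolamines from phospholipids, rose by 0.30 with the repressive construct (SE 0.09, adjusted p = 0.0221 from edgeR) and had 0.20 with the activating one (adjusted p = 0.267 from edgeR). The NAPEPLD call was lost with DESeq2 (adjusted p = 0.0773), without TMM (0.17, adjusted p = 0.272 from edgeR) and in 3 of the 8 fits that left out a library.

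Of 25 androgen-induced genes outside the kallikreins, 10 passed the filter. In the activating line 7 were called higher and 2 lower, where 22.0% and 22.8% of all genes tested were, and the median of the 10 was 0.76 against -0.092 over all genes. In the repressive line 0 were called higher and 5 lower, against 7.80% and 9.99% of all genes, with a median of -0.70 against 0.0048. Without TMM the activating counts were 4 and 3, DESeq2 called 1 of the 10, PMEPA1, lower in the repressive line and gave no adjusted p for FKBP5 and ZBTB16 there, and the fits that left out a library called 2 to 4 lower there. The list was chosen with results of these data known. FKBP5, a chaperone of steroid receptors, went from 2 to 11 counts without tamoxifen to 59 to 79 with it in the activating line, a rise of 3.69 (SE 0.25, adjusted p = 1.44e-11 from edgeR). In the repressive line it had 3 to 8 counts under vehicle and 0 or 1 under tamoxifen (adjusted p = 0.00394 from edgeR). ZBTB16, a zinc finger repressor, had 4 to 10 counts in the activating line under vehicle and 42 to 58 under tamoxifen, a rise of 3.39 (SE 0.24, adjusted p = 4.23e-11 from edgeR), and passed with lower counts, 1 to 9 and then 0 to 3, under the repressive construct (adjusted p = 0.0373 from edgeR, lost in 5 of the 8 fits that left out a library). ZBTB16 was also called lower in the neutral line, with 6 to 9 counts and then 0 to 2 (adjusted p = 0.0219 from edgeR), where it was the 1 gene of the 10 that passed, and that call was lost in 4 of the 8 fits that left out a library. PMEPA1, which restrains TGF-beta signalling, rose by 1.93 with the activating construct and fell by 1.98 with the repressive one (adjusted p = 6.33e-06 and 5.16e-04 from edgeR). CENPN, a centromere protein, rose by 1.11 and fell by 0.48 in these lines (adjusted p = 9.15e-07 and 0.0360 from edgeR), of which the fall was lost with DESeq2 (adjusted p = 0.107) and in 5 of the 8 fits that left out a library. SLC45A3, a prostate solute carrier, fell in both, by 1.68 and 0.90 (adjusted p = 4.25e-04 and 0.0233 from edgeR), and the latter call was lost with DESeq2 (adjusted p = 0.113) and in 4 of the 8 fits that left out a library.

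Of 37 annotated genes within 500 kb of ABHD2, 33 are in the table, 28 of them with fewer than 5 counts in every library, and 3 passed the filter. FANCI, a DNA crosslink repair gene that begins 41590 bases beyond ABHD2 at chr15:89787176-89860492, rose by 0.34 with the activating construct (SE 0.13, adjusted p = 0.0334 from edgeR) and fell by 0.43 with the repressive one (SE 0.13, adjusted p = 0.0185 from edgeR). Each FANCI call was lost with DESeq2 (adjusted p = 0.0709 and 0.0708) and in 3 of the 8 fits that left out a library, and under library totals without TMM the activating value turned to -0.11. POLG, the mitochondrial DNA polymerase gene at chr15:89848429-89878092, whose exons overlap FANCI on the opposite strand, fell from 199 to 236 counts without tamoxifen to 20 to 25 with it in the activating line, a log2 fold change of -2.74 (SE 0.16, adjusted p = 7.65e-13 from edgeR). KIF7, a kinesin of Hedgehog signalling at chr15:90152020-90206317 whose exons overlap TICRR on the opposite strand, had 28 to 37 counts without tamoxifen and 0 or 1 with it in that line (adjusted p = 5.39e-09 from edgeR). With the repressive construct POLG and KIF7 were not called (-0.10 and -0.33, adjusted p = 0.523 and 0.351 from edgeR). TICRR, opposite to KIF7, had at most 2 counts in any library. Which strand the RNA behind the FANCI, POLG and KIF7 rows came from was not tested, so their changes are changes of rows. The rows next to ABHD2 in the annotation that bear the same clone name, RP11-326A19.3 and RP11-326A19.4, had at most 1 count.

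The genes most like each member were found by the root mean square difference of centred log2 CPM over the 8 group means. Nearest to ABHD2 were RP11-571M6.7 (0.074, opposite OS9), MTX1 (0.088, opposite THBS3 and RP11-263K19.6), TAF10 (0.090, opposite ILK), RP11-173P15.5 (0.091, opposite UNC119B) and RP11-867G23.3 (0.092, opposite CNIH2 and RAB1B), where the median over all genes tested was 0.415. Nearest to RP11-326A19.5 were DCAF6 (0.105, opposite MPC2), RP11-680G24.5 (0.108, opposite PDXDC1), NADK (0.121, with no opposite partner), RP11-265N6.1 (0.132, opposite SNAP23) and CENPN (0.133, opposite CMC2 and a noncoding row), with a median of 0.510. The profiles of RP11-680G24.5 (5 to 26 counts per library) and NADK (1 to 15) rest on few counts. The members differed from each other by 0.282 and RP11-326A19.5 ranked number 872 in likeness to ABHD2, while ABHD2 ranked number 320 in likeness to RP11-326A19.5. DCAF6, a cofactor of nuclear receptors, rose by 0.90 with the activating construct and fell by 0.59 with the repressive one (adjusted p = 2.67e-08 and 0.00113 from edgeR). TAF10, a subunit of TFIID, rose by 1.04 with the activating construct and by 0.23 with the repressive one (adjusted p = 7.67e-11 and 0.0130 from edgeR), and the latter call was lost without TMM (0.10, adjusted p = 0.396 from edgeR) and in 1 of the 8 fits that left out a library. These genes were selected on the same group means, so their likeness is a description.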

How the data were processed

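RNA was measured in 32 libraries of LNCaP cells, made per the labels with the Illumina Stranded mRNA Prep kit. The authors ran an nf-core workflow for RNA-seq against GRCh37 and deposited unnormalized estimated counts per gene from salmon 1.9.0. The annotation release and strand setting are not given in the sources used here. Samples were grouped by line and treatment from their labels. For the fits the values were rounded to integers, genes were filtered with filterByExpr over the 8 groups (3985 of 57773 kept), and edgeR 4.0.16 in R 4.3.3 was run with TMM scaling, robust dispersions and glmQLFTest, with Benjamini-Hochberg adjustment at 0.05 over all genes tested. The authors used DESeq2 1.28.0, and DESeq2 1.42.0 was an alternative here. Library totals were 454982 to 1164808 counts, which sets the precision, and counts are given in place of a fold where a group was at or under 3 counts per library.

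Shares were compared by exact two-sided permutation tests in SciPy. Gene positions came from GENCODE v44 lifted to GRCh37, which held 96.1% of the table's genes, and similar transcripts were found with BLAST 2.17.0. The annotation used for counting may differ. The 48 pairs of replicates had a chi-square per gene of at least 1.45, above counting noise, so no pair looked like 1 library sequenced again. The measure cannot tell separate preparations of 1 culture from separate cultures. The fits were tested on simulated data.

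The members and gene lists were chosen with earlier results of these data known. The genes named were the members, up to 4 genes of each list by the smallest adjusted p in the activating line and any list gene that passed in the repressive line, tested genes within 500 kb of ABHD2, the 5 nearest profiles of each member, and the label and strand checks. VAPA was named outside this rule. Some of the marker genes are not reported here. Alternatives were DESeq2's test, its size factors, no filter, a replicate block, 1 fit over all 32 libraries, both rows added, each library left out, a log2 ratio in place of the share with 0.5 added to each row, and, chosen after seeing the data, library totals without TMM.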

Additional observations from a re-analysis of the deposited data

Results flagged for a closer look

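The responses of the members differed between lines by the interaction test of edgeR. For ABHD2 the activating response exceeded the neutral one by 1.08 and the repressive one by 0.90 on the log2 scale. For RP11-326A19.5 the activating response exceeded the neutral one by 1.06 and the repressive one by 1.54, and the repressive response differed from the neutral one by -0.45. The last of these did not pass under library totals without TMM (adjusted p = 0.117 from edgeR). None of 24 groups of 4 libraries (CPM of either row, or the share between them) held a library far from the other 3 by Dixon's criterion.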

How the results depend on the processing

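The calls of both members in the activating line, of RP11-326A19.5 in the repressive line and of the activating responses against the neutral and repressive ones passed under every alternative run. Of 484 values of the members under an alternative, 24 changed direction, 12 lost and 4 gained a call. Values near 0 that carried no call changed sign. RP11-326A19.5 in the neutral line was 0.023 with no filter, and ABHD2 between the neutral and parental lines under vehicle was 0.030 without TMM, 0.031 with no filter and 0.012 in 1 fit over all 32 libraries, as was the ABHD2 difference between the neutral and parental responses without TMM (-0.10). With both rows added, ABHD2 took the value of its partner, since the sum is mostly RP11-326A19.5: -0.45 in the repressive line, -0.26 (neutral), -0.43 (repressive) and -0.41 (activating) relative to the parental line, 0.0080 between the activating and repressive lines under vehicle, and -0.43 between the repressive and neutral responses. RP11-326A19.5 between the neutral and parental lines kept a value of -0.26 with DESeq2 and with its size factors but lost the call, and between the repressive and neutral responses it was -0.46 without TMM, with the call lost. Among other named genes, library totals without TMM turned FANCI (-0.11) and NAPEPLD (-0.24) in the activating line and ABHD14A (-0.027) and RP11-173P15.5 (-0.043) in the repressive line. The cause of these changes was not tested.

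Deviations of same-numbered tamoxifen and vehicle libraries correlated at -0.0264 to 0.247, mostly positive, so pairing within lines is undecided. Between lines, those under vehicle gave -0.379 to 0.306. A replicate block gave -0.26 (adjusted p = 0.128 from edgeR) for RP11-326A19.5 between the neutral and parental lines and -0.39 (adjusted p = 0.104 from edgeR) between the activating and parental lines, and 0.00078 for ABHD2 in the former. It changed no other member call.

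Leaving out 1 library at a time moved ABHD2 in the neutral line from -0.12 to 0.049 and RP11-326A19.5 there from -0.11 to 0.052. Between the neutral and parental lines under vehicle the range was -0.10 to 0.081 for ABHD2 and -0.32 to -0.18 for RP11-326A19.5. RP11-326A19.5 ranged from -0.48 to -0.36 between the activating and parental lines, from -0.25 to -0.15 between the repressive and neutral lines and from -0.028 to 0.062 between the activating and repressive lines. The ABHD2 difference between the neutral and parental responses ranged from -0.032 to 0.18. The change in share ranged from -0.300 to 0.0620 percentage points in the parental line, from -0.0570 to 0.109 in the neutral line and from -0.143 to 0.106 in the activating line. In the repressive line it stayed between -1.84 and -1.43, where 3 against 4 libraries cannot go below an exact permutation p of 0.0571.

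Counts of genes called moved by over 1.5 times as follows. With DESeq2 it was 454 in place of 709 in the repressive line and 273 in place of 432 between the repressive and parental lines. With no filter it was 24 in place of 0 in the parental line, and 37 in place of 16 and 3 in place of 1 for the activating line against the neutral and the repressive line. Without TMM it was 1 in place of 0 in the parental line, 58 in place of 135 between the repressive and neutral responses and 32 in place of 59 between the neutral and parental ones. In 1 fit over 32 libraries it was 542 in place of 322 between the activating and parental lines and 50 in place of 93 between the repressive and neutral lines. The replicate block gave 32 in place of 0 in the parental line, 208 in place of 388 (neutral), 686 in place of 432 (repressive) and 90 in place of 322 (activating) relative to the parental line, and 34 in place of 93 and 53 in place of 16 for the repressive and activating lines relative to the neutral one. Leaving out a library did so in 31 cases, with 88 to 135 in place of 135 between the repressive and neutral responses and 33 to 71 in place of 59 between the neutral and parental ones.

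ABHD2, with 98 to 216 counts a library, had the larger standard error of the 2 members in all 14 comparisons.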
